A study of Mus musculus with 14 samples.

Results

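Gfap-high cultures are 4 of the 14 sequenced libraries, chosen because their Gfap log2 signal was over 3.9. The choice was made among the 11 libraries of 4 treatment groups, and the other 7 libraries of those groups are the Gfap-low cultures. Each treatment group holds 1 Gfap-high library: DMSO replicate 2, bicuculline replicate 2, NMP peptides replicate 3 and PK-cleaved NMP peptides replicate 3. Because measured values chose the libraries, every difference between Gfap-high and Gfap-low cultures is given as a description without a test.

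The study treated primary cortical neuron cultures from wild-type C57BL/6 mice for 1 h at day 12 in vitro and sequenced total RNA after ribosomal depletion. The DMSO group received 1% DMSO and has 2 libraries, 1 high and 1 low. The bicuculline group received 20 µM of this GABA-A receptor antagonist, which removes fast inhibition. The NMP peptide group received 4% by volume of peptides released by the neuronal membrane proteasome, and the PK-cleaved group received such peptides after proteinase K digestion. Each of these 3 groups has 1 high and 2 low libraries. The 3 libraries that received NMP peptides with 100 µM APV, an NMDA receptor antagonist, were outside the choice and are given beside it. A DMSO content is labelled for the control group alone. The labels name no preparation, plating or extraction date, so whether the high libraries share one is not known from them, and the replicates are described only as biological. All values are quantile-normalised log2 signals with unknown read depth. Features with a value numbered 15973 to 16231 in the high libraries and 15879 to 16089 in the low libraries.

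GFAP is an intermediate filament protein of astrocytes, the cells that clear glutamate and supply metabolites to neurons, and its mRNA rises when astrocytes mature or react to injury. Oligodendrocytes arise from dividing precursors that pass through a committed, premyelinating stage before they make myelin. Immediate-early genes are transcribed within minutes of neuronal activity and encode transcription factors and synaptic proteins, and cortical interneurons and some excitatory neurons package neuropeptides whose genes also respond to activity.

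Gfap (chromosome 11, 102887336 to 102897200, GRCm38.p6) had a log2 signal of 4.13 in the DMSO high library and 2.68 in the DMSO low library. With bicuculline it was 4.18 in the high library and 2.67 and 3.47 in the low libraries. It was 4.15 against 2.41 and 2.87 with NMP peptides, and 3.97 against 2.45 and 2.15 with PK-cleaved peptides. The 3 APV libraries had 2.61, 2.76 and 2.77, within the range of the low cultures. PK-cleaved replicate 3 at 3.97 lay just inside the threshold. Bicuculline replicate 3 at 3.47 lay between the high libraries and the other low libraries, of which the highest had 2.87. Averaged over the 4 groups, Gfap was 1.44 ± 0.24 (SD, n = 4 groups) higher in the high library than in the mean of the low libraries, or 2.71-fold.

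The sequence upstream of Gfap is shown because this gene defines the split. It is the reference sequence at chr11:102897191-102897450 on the minus strand (GRCm38.p6, RefSeq), which runs from 250 bases before the annotated start to the first 10 bases of the transcript. Capitals mark the match to the STAT motif TTCNNNGAA, which lies across the start.
Gfap: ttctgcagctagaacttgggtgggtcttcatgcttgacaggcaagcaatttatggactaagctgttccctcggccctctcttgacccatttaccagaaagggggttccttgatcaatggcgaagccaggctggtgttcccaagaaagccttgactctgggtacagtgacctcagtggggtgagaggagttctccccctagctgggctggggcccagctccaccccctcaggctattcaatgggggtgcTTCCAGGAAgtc

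**Figure D1:**
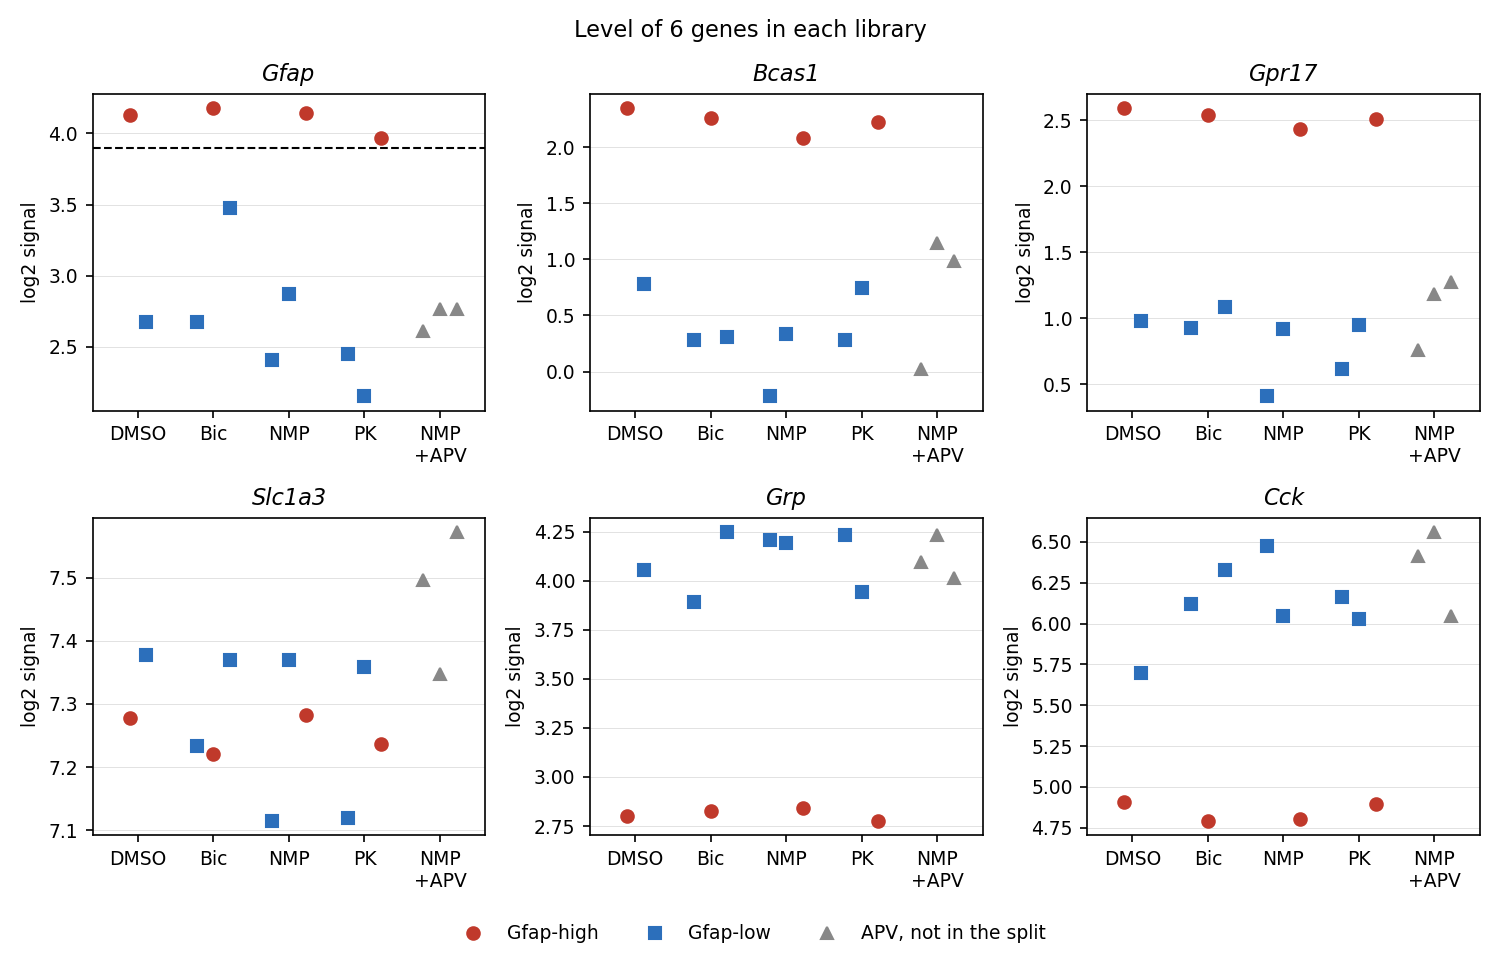
Log2 signal of 6 genes (y axis, own scale in each panel) in the 14 libraries, grouped by treatment on the x axis (Bic, bicuculline; NMP, NMP peptides; PK, PK-cleaved NMP peptides); circles are Gfap-high libraries, squares Gfap-low libraries and triangles the APV libraries, and the dashed line is the threshold of 3.9. The high libraries lie apart for Gfap, Bcas1, Gpr17, Grp and Cck, and among the low libraries for Slc1a3.

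The label holds for Gfap and not for astrocyte markers as a list. Of 32 astrocyte markers 31 were compared, and 24 of the 31 had a mean difference below 0, beside 4576 of all 10875 genes compared. The list median was -0.05 against 0.02 over all genes. The glutamate transporter gene Slc1a3 had 7.22 to 7.28 in the high libraries and 7.11 to 7.38 in the low libraries (mean difference -0.04 ± 0.07). Aldh1l1, a folate enzyme used as a pan-astrocyte marker, had a difference of -0.03 ± 0.15, and the gap junction gene Gja1 one of -0.01 ± 0.19. These levels overlapped between high and low cultures in each case. The water channel gene Aqp4 (-0.10 ± 0.09), the transporter gene Slc1a2 (-0.16 ± 0.07) and the transcription factor gene Sox9 (0.12 ± 0.18) overlapped as well. So did S100b (-0.47 ± 0.38). Of the 32 markers 1, Gfap, lay above all low libraries and 4 lay below them, beside 6.53% and 3.93% of all genes compared. Among the 4 were Glul (7.58 to 7.66 in the high against 7.73 to 7.92 in the low libraries) and Slc39a12 (0.96 to 1.13 against 1.25 to 1.57).

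A gene is called set apart when its high library lay beyond all low libraries of its own group in each of the 4 groups and the mean difference was at least 0.5 on the log2 scale. By this rule 48 genes were higher (0.441% of all genes compared) and 97 were lower (0.892%). These shares are the background for the list counts that follow. The balance of directions depended on these limits: without the filter on low values 246 of 14519 genes were higher (1.69%) and 187 lower (1.29%), with a size limit of 1 there were 7 and 5, and with no size limit 1344 and 804. Gfap was the 1 astrocyte marker set apart higher. Slc7a10, an astrocyte transporter of serine and other small amino acids, was the 1 set apart lower, at 0.12 to 0.38 in the high and 0.63 to 0.96 in the low libraries. The count of astrocyte markers set apart lower was 0 without NMP peptides replicate 1 and 2 without PK-cleaved replicate 2 or 3. The summed signal of the whole astrocyte list, as a log2 value, was 11.38 to 11.48 in the high and 11.43 to 11.63 in the low libraries.

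Reactive astrocyte genes were mostly too low to compare. Of 22 such genes 6 passed the filter on low values and 0 were set apart (median -0.07). Without the filter the median was 0.10 and 2 of the 16 with a value in all 11 libraries were set apart higher, against 1.69% of all genes. These were the cytokine receptor gene Osmr, at -0.98 to -0.58 against -2.22 to -1.19 (1.04 ± 0.20), and the chemokine gene Cxcl10, at -0.32 to 0.06 against -3.55 to -0.71 (1.59 ± 0.59), both named after their values were seen. Vim, an intermediate filament gene shared by reactive astrocytes and progenitors, had a difference of 0.11 ± 0.11, Serpina3n 0.09 ± 0.27 and Stat3, which relays cytokine signals, 0.16 ± 0.08. S100a10 was lower, at 5.35 to 5.48 against 5.69 to 5.96. Among 19 radial glia and progenitor genes the median was 0.01 and 1 gene, the intermediate progenitor factor Eomes, was set apart lower. Sox1 (0.42 ± 0.12), a transcription factor gene of neural progenitors, lay above all low libraries without reaching the size limit. Of 27 cell division genes 1 was set apart lower, the cyclin gene Ccnd1 (-0.57 ± 0.16), with a list median of -0.14. Of 21 Notch, BMP and JAK-STAT pathway genes 0 were set apart (median 0.06).

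Among the genes that passed the filter, the largest positive differences, above that of Gfap itself, were in 2 markers of the premyelinating oligodendrocyte stage. Bcas1 (chromosome 2, 170343973 to 170427911), which marks early myelin-forming oligodendrocytes, had 2.35 in the DMSO high and 0.78 in the DMSO low library. It had 2.26 against 0.28 and 0.31 with bicuculline, 2.09 against -0.22 and 0.34 with NMP peptides, and 2.23 against 0.29 and 0.74 with PK-cleaved peptides. No high library overlapped a low one, the mean difference was 1.82 ± 0.22 (3.53-fold), and the APV libraries had 0.02 to 1.14. Gpr17, a receptor of committed oligodendrocyte precursors, had 2.43 to 2.59 in the high libraries and 0.41, 0.93 and 1.08 as lowest, median and highest of the low libraries. Its mean difference of 1.66 ± 0.11 was 3.16-fold, and the APV libraries lay at 0.76 to 1.28. Gpr17 overlaps Lims2 in the annotation and Bcas1 overlaps Bcas1os2, as Cck does Gm38661, Grp Gm30094 and Txnip Gm15441. Whether counting used strand is not given, so reads of overlapping genes may be shared.

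Other members of the lineage were mixed, and a pattern by stage was not tested. Mbp, which encodes myelin basic protein, was higher by 0.44 ± 0.17 in non-overlapping libraries (1.57 to 2.00 against 1.13 to 1.47). The precursor marker Pdgfra (-0.18 ± 0.09) and the lineage factor Olig1 (-0.41 ± 0.19, 6.05 the highest high and 6.12 the lowest low library) lay on the other side of 0. Olig2 (0.11 ± 0.07) and Sox10 (0.18 ± 0.14), factors of all stages, overlapped between high and low cultures. Cnp (0.24 ± 0.08) and Cspg4 (-0.40 ± 0.35) overlapped as well. Sox8 (0.38 ± 0.22) and, below the filter, Nkx2-2 (0.87 ± 0.24) were higher without overlap. Of 22 lineage markers 13 were compared, 3 were set apart higher (background 0.441%) and 0 lower, and the median was 0.18. With the lowest 60% of genes dropped the median was -0.025. Without the filter on low values 20 had a value in all 11 libraries and 8 of them were set apart higher, beside 1.69% of all genes without the filter. Among those at low signal, named after their values were seen, Mag (myelin-associated glycoprotein) differed by 1.74 ± 0.65, Enpp6 (a marker of newly formed oligodendrocytes) by 1.61 ± 0.60, Cldn11 (a myelin claudin) by 1.14 ± 0.28 and Myrf (a myelin gene regulator) by 1.09 ± 0.44. Others at low signal did not: Ugt8a, an enzyme gene of myelin lipid synthesis, differed by -0.01 ± 0.07 and Pcdh15, a protocadherin gene, by -0.32 ± 0.23. The summed log2 signal of the list overlapped, at 7.45 to 7.57 in the high and 7.45 to 7.75 in the low libraries. In bulk RNA, more cells of a type and more RNA per cell cannot be told apart.

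**Figure D2:**
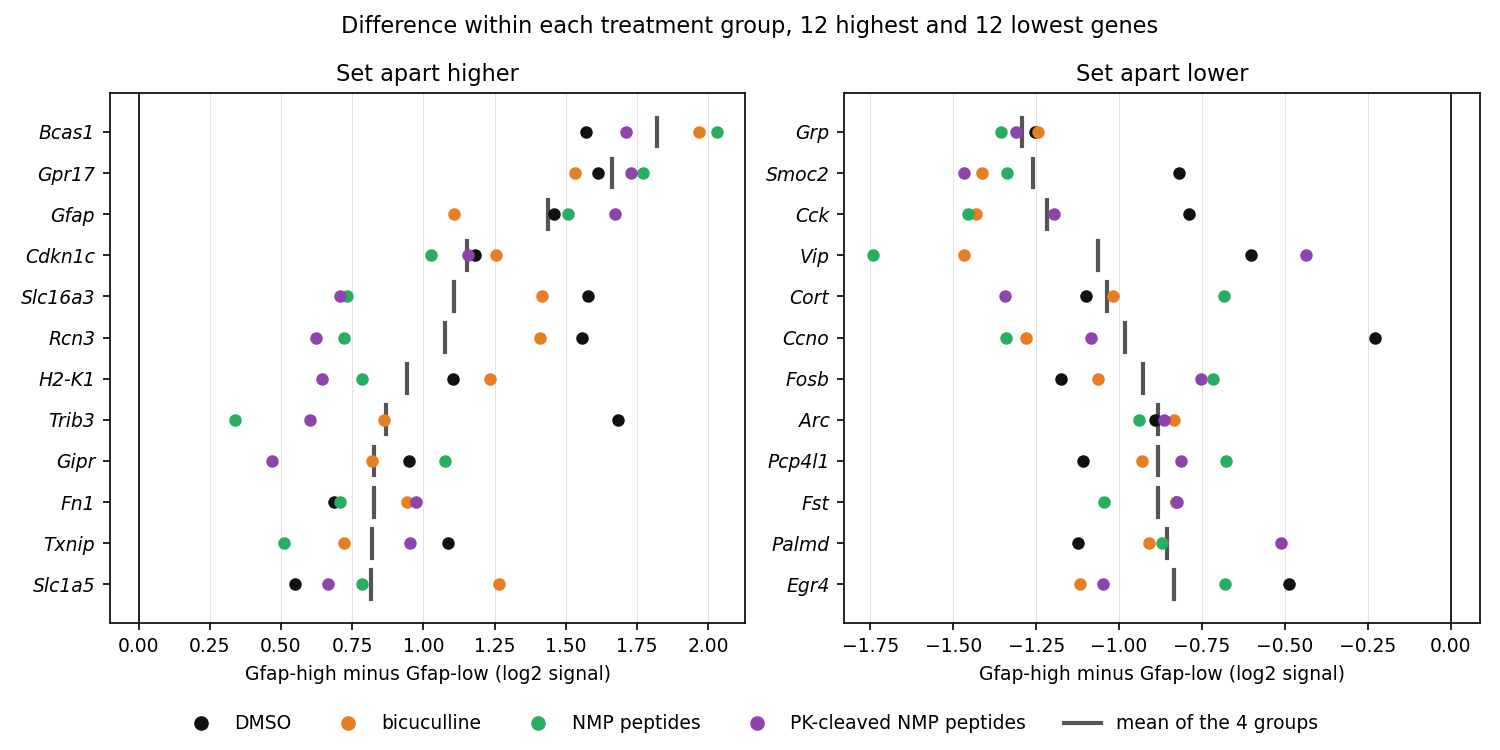
Gfap-high minus Gfap-low difference in log2 signal (x axis) within each treatment group (coloured points) and its mean over the 4 groups (grey bar), for the 12 highest and 12 lowest set-apart genes, predicted gene models left out. Every point for the higher genes lies right of 0 and every point for the lower genes left of 0, as the rule requires; Bcas1 reaches a mean of 1.82 and Grp -1.29.

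Some markers of connective tissue and meningeal cells, 6 of the 13 with a value in all 11 libraries, also separated the libraries, mostly at low signal. Dcn, a small matrix proteoglycan gene, had 3.32 to 3.62 in the high and 2.67 to 3.03 in the low libraries (0.62 ± 0.10), and Fn1, which encodes fibronectin, had 1.54 to 2.04 against 0.34 to 1.24 (0.83 ± 0.15). Of 14 such markers 7 were compared, 4 with a mean above 0 and 3 below. Of these 7, 2 were set apart higher (background 0.441%) and 0 lower, with a median of 0.07, which was 0.78 without the filter. Igfbp2 (-0.30 ± 0.19), Fstl1 (-0.03 ± 0.05), Col4a1 (0.07 ± 0.15) and Col5a1 (0.29 ± 0.24) overlapped between high and low libraries. Below the filter, Lum (0.78 ± 0.48) and Col1a1 (0.86 ± 0.59) overlapped too. The collagen gene Col3a1, below the filter and named after its values were seen, had -1.40 to -0.57 in the high and -5.92 to -4.84 in the low libraries. That gap of 4.40 ± 0.34 was larger than that of any gene compared, but its low libraries lay at very low signal. Its size is therefore uncertain and does not rank with genes that passed the filter. Col1a2, another fibrillar collagen gene, differed by 2.91 ± 0.16 and the growth factor gene Igf2 by 2.63 ± 0.53, again without overlap and with all values below 0. The same limit holds for these genes. Without the filter 13 markers had a value in all 11 libraries, 6 of them were below 0 in all 11, and 6 were set apart higher, beside 1.69% of all genes without the filter. The summed signal of the list was 6.58 to 6.65 in the high and 6.58 to 6.81 in the low libraries.

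Microglia and vessel markers were near the floor. Of 16 microglia markers 1 was compared and 0 were set apart, and 9 of the 11 with a value throughout were below 0 in all 11 libraries. Their summed signal was 3.11 to 3.33 in the high and 3.16 to 3.45 in the low libraries. Of 13 endothelial and mural markers 1 was compared, the smooth muscle actin gene Acta2, which varied widely (-0.88 ± 0.89) and overlapped. The summed signal of that list was 1.40 to 1.81 against 1.44 to 2.49.

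Neuronal markers were present in all libraries, as the labelled cell type has them. The pan-neuronal and synaptic list had a summed log2 signal of 12.03 to 12.06 in the high and 11.96 to 12.20 in the low libraries. Its 29 members had a median of -0.13 with 22 of 29 below 0, beside 4576 of all 10875 genes. The neuronal tubulin gene Tubb3 differed by 0.04 ± 0.18. Nefh, a neurofilament gene, was the 1 member set apart lower (0.41 to 0.85 against 0.86 to 1.55). The glutamate receptor gene Grin1 (-0.32 ± 0.05) lay below all low libraries without reaching the size limit. Of 19 excitatory neuron markers 1 was set apart, the deep-layer factor Fezf2, which was higher (3.63 to 3.68 against 2.91 to 3.37), and the list median was -0.01. The vesicular glutamate transporter genes Slc17a7 (-0.33 ± 0.12) and Slc17a6 (-0.45 ± 0.10) were lower in non-overlapping libraries.

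The 12 lowest set-apart genes include Grp, Cck, Vip and Cort, which encode neuropeptides. Grp, which encodes gastrin-releasing peptide, had 2.80 in the DMSO high and 4.05 in the DMSO low library. It had 2.83 against 3.89 and 4.25 with bicuculline, 2.84 against 4.21 and 4.19 with NMP peptides, and 2.78 against 4.24 and 3.94 with PK-cleaved peptides. The 4 high libraries were nearly equal and none overlapped a low library, and the mean difference was -1.29 ± 0.05 (2.45-fold lower). Cck, which encodes cholecystokinin (chromosome 9, 121489824 to 121495694), had 4.91 against 5.70 in DMSO and 4.79 against 6.12 and 6.33 with bicuculline. With NMP peptides Cck had 4.80 against 6.47 and 6.05, and with PK-cleaved peptides 4.90 against 6.16 and 6.03. Its mean difference was -1.22 ± 0.31 (2.33-fold lower) and the APV libraries, at 6.05 to 6.56, lay with the low cultures. The interneuron peptide genes Vip (-1.06 ± 0.64) and Cort (-1.04 ± 0.27) were set apart too. For Cort the APV libraries, at -0.04 to 0.46, did not lie with the low cultures: the high libraries had 0.39 to 0.89 and the low ones 1.29 to 2.17.

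Other peptide genes differed in direction, and no list of all peptide genes was counted. Tac1 (-0.71 ± 0.05), Penk (-0.62 ± 0.35) and Adcyap1 (-0.54 ± 0.10), named after their values were seen, encode tachykinin, enkephalin and PACAP precursors and were set apart lower. Sst, which encodes somatostatin, differed by 0.07 ± 0.09, and Npy, which encodes neuropeptide Y, was higher by 0.37 ± 0.22. Of 21 inhibitory neuron markers 2 were set apart lower (background 0.892%) and 0 higher, and the list median was 0.00. The 2 were Vip and the calcium-binding protein gene Calb2 (5.05 to 5.16 against 5.69 to 6.18). The GABA-synthesising enzyme gene Gad1 was lower by 0.28 in the mean (-0.28 ± 0.08), and the interneuron factors Dlx2 (0.30 ± 0.22) and Lhx6 (0.30 ± 0.12) lay above 0.

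The upstream sequence of Cck is shown as the peptide gene with the highest signal among those set apart lower. It is the minus strand of chr9:121495685-121495944 (GRCm38.p6, RefSeq), over the same 250 and 10 bases, and it held 0 matches to the motifs searched.
Cck: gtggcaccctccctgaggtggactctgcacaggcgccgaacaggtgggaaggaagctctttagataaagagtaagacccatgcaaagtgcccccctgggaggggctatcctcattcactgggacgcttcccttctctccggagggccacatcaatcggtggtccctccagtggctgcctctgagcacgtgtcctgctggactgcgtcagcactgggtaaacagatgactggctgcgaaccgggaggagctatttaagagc

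Among immediate-early transcription factors, 10 were lower in the Gfap-high library of every treatment and 6 had a mean difference above 0. Of 20 compared, 10 were set apart lower (background 0.892%) and 0 higher, with a median difference of -0.52 over the list. Within groups the list median was -0.33 in DMSO, -0.62 with bicuculline, -0.61 with NMP peptides and -0.36 with PK-cleaved peptides. Fos, a subunit of the AP-1 factor (chromosome 12, 85473890 to 85477274), had 4.03 in the high and 4.61 in the low DMSO library. It had 7.28 against 7.80 and 8.02 with bicuculline, 5.71 against 6.31 and 6.56 with NMP peptides, and 3.9 against 4.57 and 4.29 with PK-cleaved peptides. The high library was the lowest of its group each time, by a mean of 0.62 ± 0.09 (1.53-fold lower), while across groups the levels overlapped because treatment moved them more. Fosb (-0.93 ± 0.23), Egr4 (-0.83 ± 0.30), Egr2 (-0.78 ± 0.23), Junb (-0.75 ± 0.14), Nr4a1 (-0.70 ± 0.22), Npas4 (-0.68 ± 0.32) and Egr1 (-0.65 ± 0.18) behaved likewise. Egr3 (-0.58 ± 0.13) and Maff (-0.59 ± 0.20) completed the 10.

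The remaining 10 were mixed. Ier2 (-0.46 ± 0.19), Klf4 (-0.38 ± 0.41) and Nr4a3 (-0.17 ± 0.26) had means below 0 without meeting the rule. Jun (0.02 ± 0.39), Jund (0.04 ± 0.27), Klf6 (0.06 ± 0.04) and Atf3 (-0.01 ± 0.97) had mean differences near 0, and Fosl2 (0.27 ± 0.27) and Nr4a2 (0.12 ± 0.52) had means above 0. The effector genes have products that act at synapses or feed back on signalling. Of 21 compared, 19 had a mean below 0, beside 4576 of all 10875 genes. Of the 21, 5 were set apart lower (background 0.892%) and 0 higher, with a median of -0.35. Arc, a synaptic protein gene (chromosome 15, 74669081 to 74672570), had 1.74 against 2.63 in DMSO, 5.78 against 6.65 and 6.57 with bicuculline, 3.20 against 4.07 and 4.21 with NMP peptides, and 1.85 against 2.81 and 2.62 with PK-cleaved peptides. The difference was almost the same in each group, -0.88 ± 0.05 (1.84-fold lower). Vgf, a secreted neuropeptide precursor gene (-0.82 ± 0.15), the neurotrophin gene Bdnf (-0.77 ± 0.21) and the MAP kinase phosphatase genes Dusp6 (-0.57 ± 0.19) and Dusp5 (-0.52 ± 0.14) were the others. The growth-arrest genes Gadd45g (-0.55 ± 0.59) and Gadd45b (-0.48 ± 0.25), the phosphatase gene Dusp1 (-0.38 ± 0.21) and the synaptic pentraxin gene Nptx2 (-0.35 ± 0.06) had means below 0 without meeting the rule. The synaptic scaffold gene Homer1 (-0.04 ± 0.15) and the kinase gene Sik1 were near 0. The marker and stress lists given here differ between the same libraries, and their part in the lower activity genes was not tested.

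**Figure D3:**
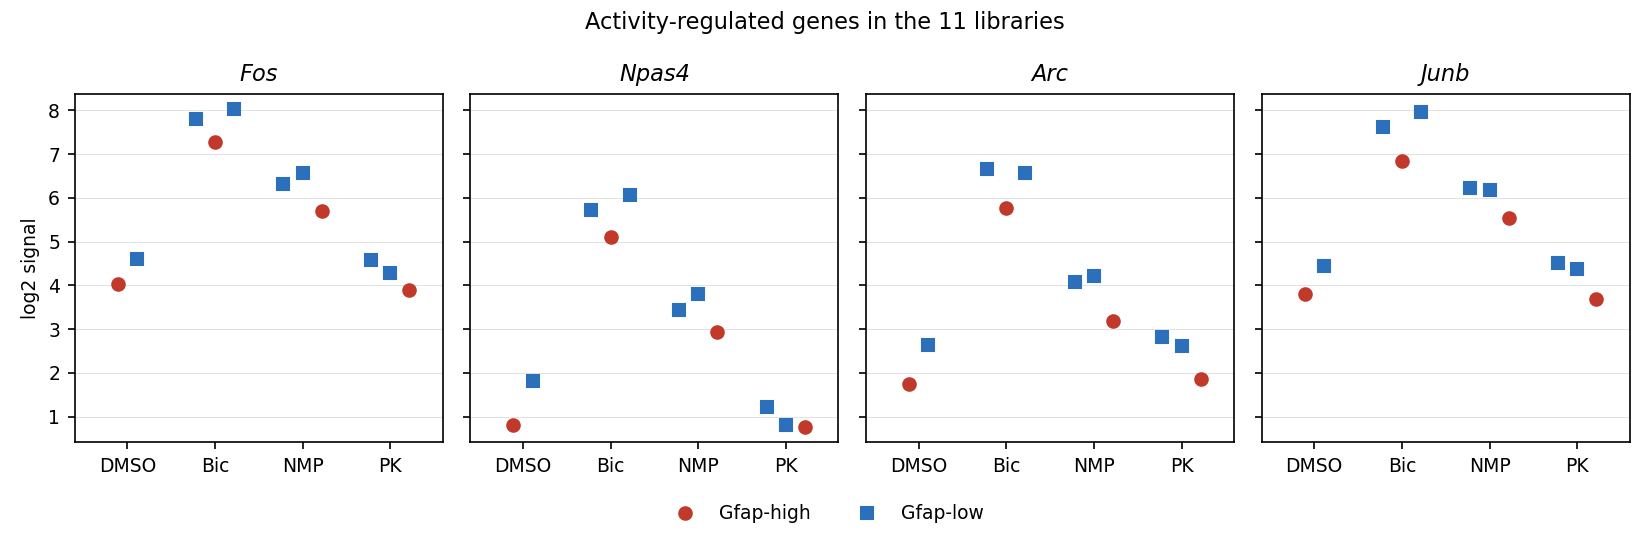
Log2 signal (y axis) of Fos, Npas4, Arc and Junb in the 11 libraries by treatment (x axis; Bic, bicuculline; NMP, NMP peptides; PK, PK-cleaved NMP peptides); circles are Gfap-high and squares Gfap-low libraries. The high library is the lowest of its group in all 4 panels and treatments, and the order of the treatments is the same in high and low libraries for Fos, with bicuculline highest.

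The Fos upstream sequence is shown as that of an activity gene for comparison with the others. It is the plus strand of chr12:85473640-85473899 (GRCm38.p6, RefSeq), and capitals mark the TATA box letters TATAAA.
Fos: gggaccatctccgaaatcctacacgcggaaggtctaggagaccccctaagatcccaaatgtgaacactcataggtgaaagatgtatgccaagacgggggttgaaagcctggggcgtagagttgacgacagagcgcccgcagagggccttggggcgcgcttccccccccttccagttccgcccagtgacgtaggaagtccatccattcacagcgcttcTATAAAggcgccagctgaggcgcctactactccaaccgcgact

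These 4 motifs were searched on both strands of 300-base RefSeq windows, at the first start listed for a gene. The STAT letters TTCNNNGAA were in 6.45% of 31 windows of genes set apart higher, 13.8% of 65 windows of genes set apart lower and 6.29% of 8422 windows over all genes. The TATA letters TATAAA were in 19.4%, 12.3% and 6.07%. The AP-1 letters TGANTCA were in 3.23%, 3.08% and 3.99%, and the cyclic AMP response element TGACGTCA in 0%, 0% and 3.63%. These motifs do not contain one another. A match describes letters in these windows and is no evidence of binding.

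Outside the lists, further genes stood among the 12 highest and 12 lowest. Cdkn1c, an inhibitor of cyclin-dependent kinases, had 1.89 to 2.18 in the high libraries and 0.71, 0.93 and 1.12 as lowest, median and highest of the low ones (1.15 ± 0.09). Rcn3, which encodes a calcium-binding protein of the endoplasmic reticulum, had 1.36 to 1.71 against 0.04 to 0.93. The neutral amino acid transporter gene Slc1a5 (0.82 ± 0.31), the incretin receptor gene Gipr (0.83 ± 0.26) and Txnip (0.82 ± 0.25) were also higher. Among the lower genes, Smoc2, which encodes a secreted matrix-associated protein, had -0.73 to -0.02 in the high and 0.68 to 0.80 in the low libraries (-1.26 ± 0.30). Fst, whose product follistatin binds activins, had 0.67 to 0.82 against 1.47 to 1.91 (-0.88 ± 0.11). Pcp4l1 (-0.88 ± 0.18) and Palmd (-0.85 ± 0.25) separated without overlap as well, whereas Ccno, a cyclin family gene, overlapped across groups (-0.98 ± 0.52). The APV libraries lay with the low cultures for Smoc2 (0.83 to 1.11) and Fst (1.48 to 1.77), and for Palmd they lay at 0.95 to 1.72, below all 7 low libraries.

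Metabolic genes formed a smaller set. Of 17 hypoxia and glycolysis genes 3 were set apart higher (background 0.441%) and 0 lower (background 0.892%), with a median of 0.24. Hk2, a hexokinase gene, had 1.57 to 2.29 against 0.59 to 1.71 (0.69 ± 0.08), the angiogenic factor gene Vegfa 4.31 to 4.72 against 3.62 to 4.06 (0.59 ± 0.10), and the oxygen-sensing hydroxylase gene Egln3 2.13 to 2.75 against 1.62 to 2.18 (0.51 ± 0.24). Pfkp, a phosphofructokinase gene of the same list, went the other way without overlap (4.75 to 4.89 against 5.18 to 5.44, -0.47 ± 0.11), and the glucose transporter gene Slc2a1 was at -0.20 ± 0.12. Slc16a3, a lactate transporter gene outside the list, was higher by 1.11 ± 0.45, and overlaps Csnk1d, which was higher by 0.17 ± 0.05. Of 18 integrated stress and unfolded protein response genes 17 had a mean above 0, beside 6298 of all 10875 genes. The pseudokinase gene Trib3 (0.87 ± 0.58) was the 1 set apart. The list median was 0.71 within DMSO and 0.05 to 0.16 in the other groups, so the DMSO pair carried most of it. Chac1 (0.58 ± 0.54) and Ddit3 (0.48 ± 0.76), targets of the same response, had differences of 1.36 and 1.60 within DMSO, the largest of the 4 groups.

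Other lists had 0 or 1 gene set apart. Of 79 ribosomal protein genes 72 had a mean above 0 (median 0.11) and 0 were set apart. Of 88 respiratory chain genes 68 had a mean below 0 (median -0.08) and 0 were set apart. Over all 10875 genes 6298 had a mean above 0 and 4576 below. Sterol synthesis (22 genes, median -0.08) and interferon response genes (6 genes, median 0.12) had 0 set apart as well. The sterol median was -0.33 within DMSO and -0.03 to 0.06 in the other groups. Of 13 matrix and synapse-organising secreted genes 1 was set apart lower, Hapln1, a link protein of perineuronal matrix (2.14 to 2.26 against 2.49 to 3.33), with a median of 0.11. Of 10 replication-dependent histone genes 8 had a mean below 0 (median -0.28), and 1, Hist1h2bc, was set apart lower. The single nuclear long noncoding RNA compared, Snhg11, differed by 0.38 ± 0.25. H2-K1, a class I histocompatibility gene, was higher by 0.94 ± 0.27, but reads of near-identical family members may be split, and its relative H2-D1 differed by 0.42 ± 0.24.

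**Figure D4:**
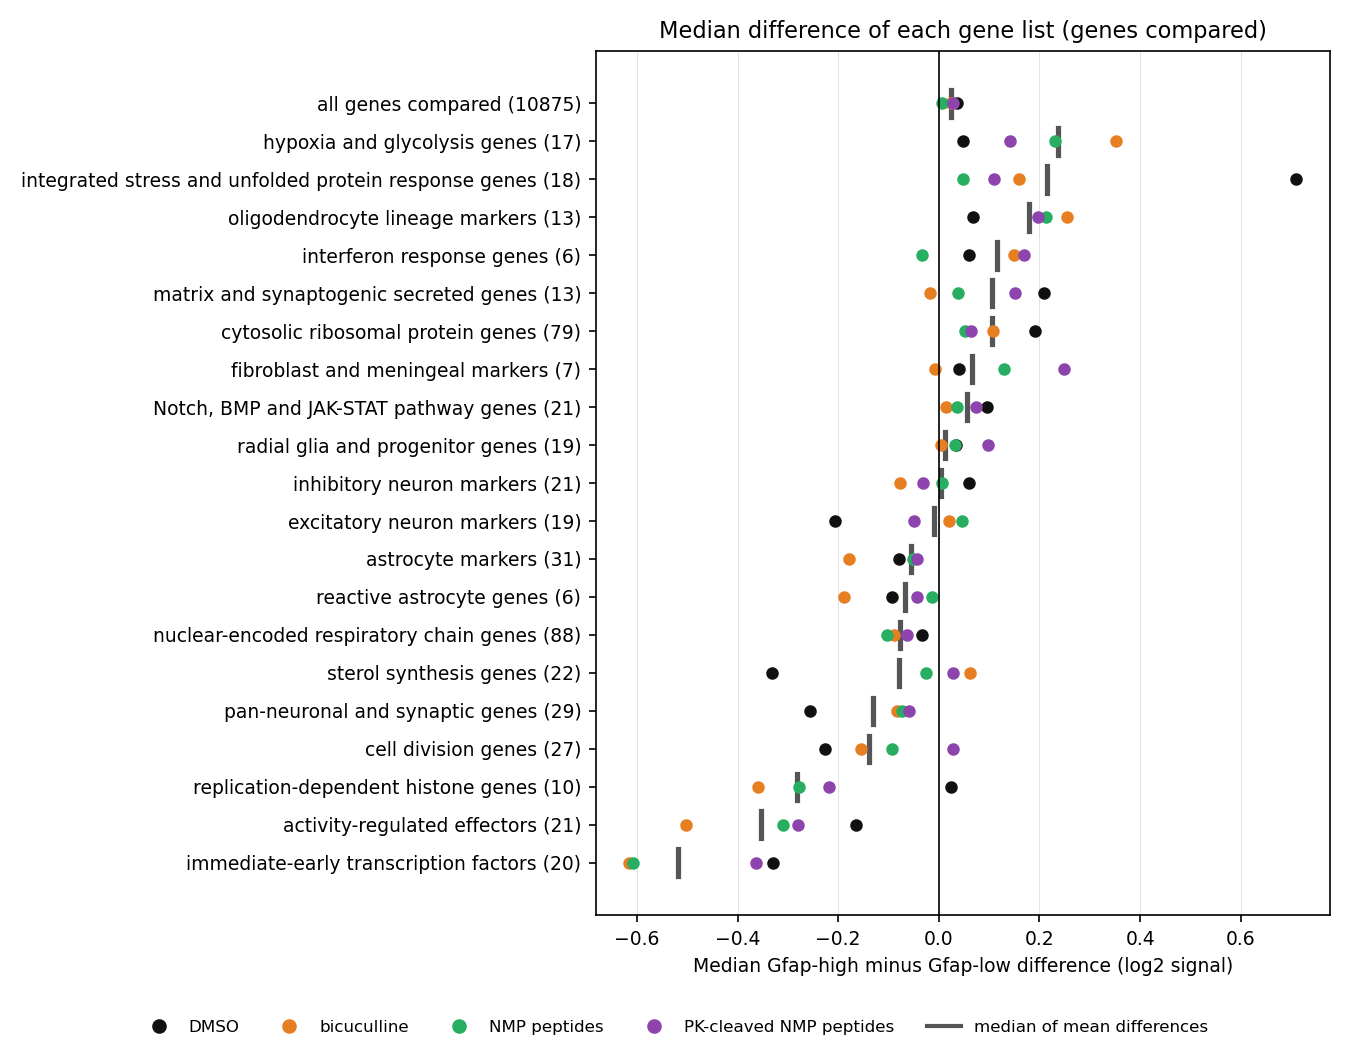
Median Gfap-high minus Gfap-low difference in log2 signal (x axis) of each gene list with at least 6 genes compared (y axis, number of genes in brackets); points are the medians within the 4 treatment groups and the grey bar is the median of the mean differences. The immediate-early list lies lowest at -0.52 and the hypoxia and glycolysis list highest at 0.24, with all genes at 0.02.

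The differences recurred between groups that share no library. Across genes, Gfap left out, the within-group differences of any 2 of the 4 groups correlated with Pearson's r of 0.41 to 0.68 and Spearman's rho of 0.34 to 0.64 over 6 pairs of groups. Genes are not independent replicates and the libraries were quantile-normalised together, so these values describe the data and have no p. Without regard to treatment, all 4 high libraries lay above all 7 low libraries in 710 genes (6.53%) and below them in 427 (3.93%). Of the set-apart genes, 40 of 48 higher and 70 of 97 lower ones were among these.

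The APV libraries entered the filter on mean signal but not the rule for set-apart genes. Over 109 set-apart genes that also separated all 11 libraries, Gfap left out, the 3 APV libraries were nearer to the median of the low than of the high libraries in 83, 78 and 86 genes. They also differ from the others by APV treatment, so these counts mix treatment with the split.

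Treatment responses were then tested with the split as a covariate, since the contrast between treatments was not what chose the libraries. For NMP peptides against PK-cleaved peptides limma called 16 genes higher (0.147%) and 1 lower; the limit was an adjusted p of 0.05 over all 10875 genes. Without the split as a covariate it called 5 higher (0.046%) and 0 lower, and all 5 were among the 17. Npas4, an activity-dependent neuronal factor, rose by 2.46 on the log2 scale in both fits, with an SE of 0.16 with the split and 0.29 without it (limma adjusted p = 2.21e-05 and 0.0198). Fos rose by 1.94 (SE 0.09 against 0.25; limma adjusted p = 3.69e-06 and 0.0198). For Arc the estimate was 1.40 with an SE of 0.07 and a limma adjusted p of 3.69e-06 with the split, and an SE of 0.34 and an adjusted p of 0.912 without it. The gene called lower was Txnip, an arrestin-like gene that restrains glucose uptake, which fell by 1.05 (SE 0.12). The estimates were the same in both fits because these groups each have 1 high and 2 low libraries.

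Among the immediate-early factors 10 of 20 rose with the split in the fit and 4 of 20 without it, and among the effectors 6 of 21 and 1 of 21. Their median log2 difference was 0.95 and 0.45 in either fit. The median SE of the factors was 0.15 with the split and 0.26 without it, against 0.091 and 0.104 over all genes. The split was drawn from these same libraries and the activity genes differ along it, so the added calls are not independent evidence for the peptide response.

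**Figure D5:**
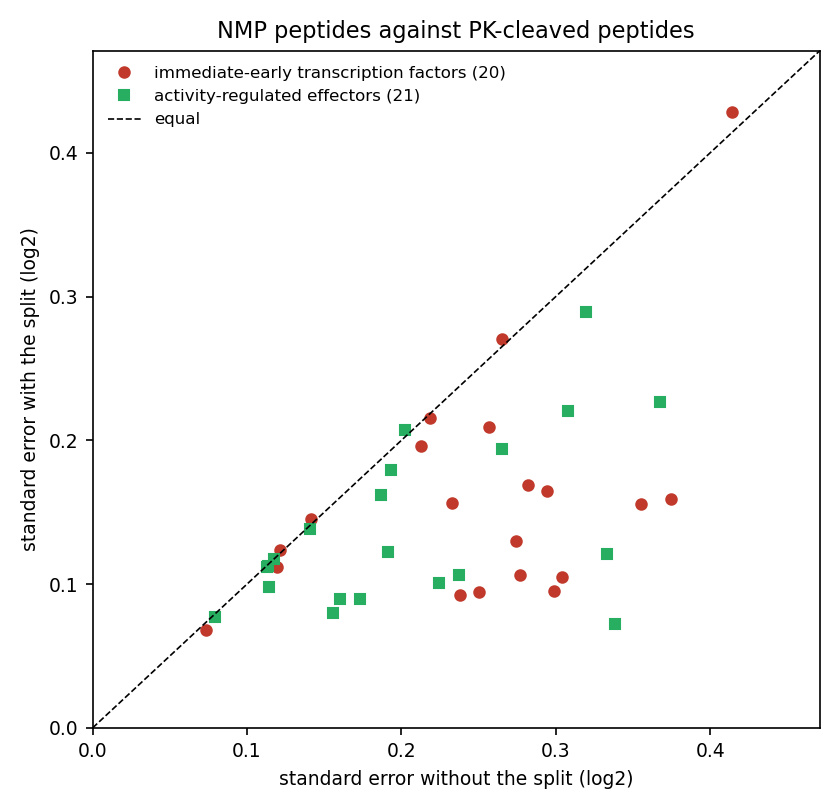
Standard error (log2) of the NMP peptide against PK-cleaved difference with the split in the fit (y axis) and without it (x axis) for 20 immediate-early factors (circles) and 21 effectors (squares); the dashed line marks equal errors. Most points lie below the line, and the medians of the factors are 0.15 and 0.26.

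Bicuculline against DMSO gave 57 genes higher (0.524%) and 0 lower with the split, and 45 higher (0.414%) and 0 lower without it, all 45 among the 57. Arc rose by 4.00 (SE 0.08, 16.0-fold), Npas4 by 4.22 (SE 0.19, 18.7-fold) and Fos by 3.28 (SE 0.11, 9.72-fold) with the split. Of the immediate-early factors 16 of 20 rose in both fits, and of the effectors 15 of 21 with the split and 13 of 21 without it. NMP peptides against DMSO gave 15 higher (0.138%) and 1 lower with the split, and 0 calls without it. In that fit without the split 226 genes had an unadjusted limma p under 0.05. That is less than a 0.05 share of the 10875 genes, so the count shows no excess. Arc (1.49, SE 0.08), Fos (1.77, SE 0.11), Junb (1.73, SE 0.11) and Npas4 (1.97, SE 0.19) were among the 15, and Txnip, by -1.50 (SE 0.13), was the 1 lower. The activity genes differ along the split, so calls added by it are not independent evidence for either response. All calls for NMP peptides against DMSO were added in this way. Both comparisons with DMSO rest on 2 DMSO libraries, of which 1 is high. Without DMSO replicate 3 the counts were 26 and 9.

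Whether high and low cultures responded differently was tested as an interaction. Arc rose by 4.04 with bicuculline in the high libraries and by 3.98 in the low, a difference of 0.06 (SE 0.22, 95% interval -0.45 to 0.56). Fos rose by 3.25 and 3.30 (difference -0.05, 95% interval -0.65 to 0.55) and Npas4 by 4.30 and 4.10 (0.21, -0.61 to 1.02). Over the 20 immediate-early factors the median bicuculline response was 1.92 in high and 2.34 in low cultures. For NMP peptides against PK-cleaved peptides the medians were 0.98 and 0.94, and Npas4 rose by 2.15 and 2.61 (difference -0.46, -1.21 to 0.30). In both interactions limma called 0 genes, with 88 and 36 genes at an unadjusted p under 0.05 and smallest adjusted p-values of 0.276 and 1. Both counts are less than a 0.05 share of the 10875 genes. Each high value is 1 library, 3 residual degrees of freedom were left, and the bicuculline intervals of Arc, Fos and Npas4 all reach past 0.5 on the log2 scale.

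With a replicate block the interaction fits called 3 genes for bicuculline and 2 for NMP peptides, with 1 residual degree of freedom. Those for bicuculline included Atf3, a stress-induced factor (-3.02, SE 0.31, against -2.30, SE 0.80, without the block). Gadd45g, a growth-arrest gene, was another (-1.38, SE 0.18, against -1.28, SE 0.30, without the block). The third was the gene model 2210418O10Rik, and those for NMP peptides were the gene models Gm2446 and Gm10340. The block treats same numbers in all 4 groups as matched. Correlations between DMSO or bicuculline and NMP or PK-cleaved libraries of the same number were negative.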

How the data were processed

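Paired 100-base reads of total RNA from 14 libraries underlie the data, per the labels' protocols. The authors deposited 1 table of log2 signals. All libraries have the same median (2.19) and the same highest value (12.0), a mark of quantile normalisation, so read depth is unknown and no counting error can be given. Base 2 was inferred: linear values times exon length then sum to 834175 to 903046 per library, against 5.93e+06 or more with base e. The submitters' processing notes name GRCm38.p6; the aligner, the counter and its strand setting were not given in the sources used here. The table lists 45802 features, 18128 with a value. The lowest 40% by mean over all libraries were dropped and 4 features sharing a name left out, leaving 10875 genes, of which 19 carry date-like names and are not named. A few list members are counted but not reported here by name.

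Within each of 4 groups the mean of the low libraries was subtracted from the high library, and the mean and SD of these 4 differences are given. The split, the 23 gene lists and the naming rule were chosen with earlier results of these data known. That rule took Gfap, 6 index genes, the largest differences of each list, the 12 highest and 12 lowest set-apart genes and the called genes of smallest p; members near 0 and other members were named after their values were seen. Treatment contrasts and interactions used limma 3.58.1 in R 4.3.3 on 11 libraries (variance trend, two-sided, Benjamini-Hochberg over all genes), tested on simulated data. The replicates are described only as biological, and whether they came from separate preparations is not stated. The p-values therefore cover only the spread among these samples.

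Same-numbered NMP peptide and PK-cleaved libraries deviated together (r across genes 0.51, 0.50 and 0.61). DMSO and bicuculline libraries gave 0.54 and 0.17, and all other same-numbered pairs were negative. The high library is replicate 2 in DMSO and bicuculline and replicate 3 in the NMP and PK-cleaved groups. Within either of these pairs of groups number and split therefore cannot be told apart, and the signs of these correlations do not show pairing. Over all 11 libraries both terms could be fitted together, and the labels name no pairing. Alternatives were other filters, median centring, a least-squares estimate, other size and overlap rules, no DMSO group, a replicate block, no variance trend, no split term, array weights and each library left out. Positions and promoter windows are RefSeq's, and sums and figures used Python 3.11.15.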

Additional observations from a re-analysis of the deposited data

How the results depend on the processing

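The filter on low values and the size limit set the counts of the split: without the filter 246 genes were set apart higher and 187 lower, with the lowest 60% dropped 14 and 40, and with a least difference of 1 the counts were 7 and 5. Leaving out each library gave 44 to 64 and 88 to 117. Without the filter the list medians were 0.10 (reactive astrocyte), 0.059 (progenitor), 0.31 (oligodendrocyte lineage), -0.18 (microglia), 0.78 (fibroblast and meningeal), -0.038 (interferon) and -0.032 (histone). With the lowest 60% dropped they were -0.025 (oligodendrocyte lineage) and 0.022 (interferon). With a replicate block they were -0.048 (progenitor) and -0.038 (respiratory chain). Leaving out 1 library took the progenitor median from -0.013 to 0.062 and the inhibitory median from -0.062 to 0.053. Of 390 alternative list medians 376 moved by less than the spread between groups. Leaving out 1 library changes the difference of only 1 group, so this count is a weak check.

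In the treatment tests, removing the split term left 5 calls for NMP against PK-cleaved peptides and 0 for NMP peptides against DMSO. Array weights gave 4124 and 30 calls, but their estimation did not converge and put weights of 17.0 and 11.7 on the high NMP and PK-cleaved libraries. A replicate block without the split, added after seeing the data, gave 0 and 0. With the replicate block beside the split the counts were 18, 53 and 12, against 17, 57 and 16 without it, for NMP against PK-cleaved peptides, bicuculline against DMSO and NMP peptides against DMSO. Leaving out each library gave 13 to 25, 26 to 60 and 9 to 20, with 26 and 9 reached without DMSO replicate 3. The interactions gave 3 and 2 calls with the replicate block, and 0 in each leave-one-out fit that could be made; the others could not be fitted because a mean was lost. The cause of these changes was not tested. Read depth is unknown, so what it limits cannot be given.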

Other observations

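These 3 receptor genes were set apart lower and were picked after their values were seen; receptors as a group were not counted. Cckbr, a cholecystokinin receptor gene, had 1.45 to 1.69 in the Gfap-high and 2.03 to 2.35 in the Gfap-low libraries (-0.62 ± 0.12, SD over 4 groups). Htr2c, a serotonin receptor gene, had 2.03 to 2.18 against 2.62 to 2.93 (-0.63 ± 0.06), and the dopamine receptor gene Drd2 had 1.55 to 1.70 against 1.89 to 2.38 (-0.56 ± 0.16). The APV libraries lay between the high and the low libraries for Htr2c (2.48 to 2.55), and for Cckbr they lay among and below the high ones (1.22 to 1.57).

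Set-apart genes had a shorter median length and a lower median signal than all genes compared. Without the filter on low values more genes were set apart, 1.69% against 0.441% higher and 1.29% against 0.892% lower. How far the rule itself favours genes of low signal was not tested. The median gene length was 9.72 kb for the 48 higher genes, 15.0 kb for the 97 lower genes and 25.0 kb for all genes compared, and the median log2 signals were 1.46, 2.02 and 3.30.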
